A study of Mus musculus with 6 samples.

Results

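The SLC25 mitochondrial carriers were followed in mouse hair follicle stem cells after diphtheria toxin (DT) or saline. The members are the protein-coding mouse genes whose symbol starts with Slc25a. There are 47 of them among the 36528 gene identifiers listed in each library, spread over 19 chromosomes, and 41 passed the filter on low counts that left 15132 genes for the fit. The family was picked with the DT and saline counts of these 6 libraries in view, because Slc25a25 was its strongest riser. Differences between DT and saline are therefore described for the members by their values and standard errors, with no p-value.

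SLC25 carriers are proteins of the inner mitochondrial membrane that exchange nucleotides, phosphate, carboxylates, amino acids, acylcarnitines, metals and cofactors between the cytosol and the matrix. They are encoded in the nucleus and reach the membrane through the TOM and TIM22 import complexes. A few act elsewhere, such as Slc25a17 in peroxisomes and Slc25a46 in the outer mitochondrial membrane. Resting bulge stem cells are generally described as glycolytic cells with modest mitochondrial activity.

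The cells came from the skin of Lgr5-DTReGFP mice, in which the DT receptor and eGFP are carried at Lgr5, so that DT targets Lgr5-expressing cells. Both groups carry this allele, and cells were sorted as CD49f-positive, CD34-positive and GFP-negative, that is, bulge stem cells outside the reporter-positive population. One group of 3 libraries came from mice given saline (labelled NaCl) and the other 3 from mice given DT. The samples analysed include no DT-treated mice lacking the receptor, and the labels give no dose, time after treatment, age, number of animals or stage of the hair cycle. Whether each library is a different animal is also not stated, so the spread between libraries may be technical. Fewer cells of a type and less RNA per cell cannot be told apart in such bulk libraries.

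Polyadenylated RNA was sequenced to 15300755 to 25558859 reads in genes per library. Of 7 bulge keratinocyte markers, all were detected. Krt15, a bulge keratin, was at 34812 ± 6583 CPM in saline (SD, n = 3; CPM being the depth-scaled count after TMM scaling), and Cd34 was at 2804 ± 354.5 CPM. In DT the basal keratin Krt14 rose (log2 1.78, adjusted p = 5.16e-05), the bulge transcription factors Lhx2 (log2 -1.09, adjusted p = 0.00696) and Sox9 (log2 -0.71, adjusted p = 0.0342) fell, and the other 4 of the list were not called. The part of these markers in the differences below was not tested. Of 15132 genes, 2600 were higher and 1795 lower in DT at a Benjamini-Hochberg adjusted p under 0.05 (edgeR quasi-likelihood test), or 2099 and 2316 when scaled by library size only. All 4 proliferation genes listed, Mki67, Top2a, Cdk1 and Ccnb1, rose in DT, with a summed level of 45.6 to 72.2 CPM with saline and 379.8 to 800.3 CPM with DT, lowest in DT library 1. The part of proliferation in the differences below was not tested.

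In saline cells the family was dominated by a few genes when compared per length. On the deposited RPKM scale, which divides reads by gene length and library depth, the adenine nucleotide carrier Slc25a4 led with 312 ± 3.64 RPKM. Its paralog Slc25a5 followed with 179.9 ± 14.8 RPKM and did not differ beyond the spread from the peroxisomal Slc25a17, at 179 ± 17.2 RPKM. These 3 genes made up 58.7% ± 1.26 of the summed RPKM of the family in saline and 67.1% ± 2.19 in DT. The phosphate carrier Slc25a3 had 112 ± 14.6 RPKM, the oxoglutarate carrier Slc25a11 83.4 ± 3.22 RPKM and the glycine carrier Slc25a38 24.6 ± 2.03 RPKM. The spreads of Slc25a38 and of the carnitine carrier Slc25a20, next in order with 23.5 ± 10.03 RPKM, overlapped. In all, 15 members reached 10 RPKM in saline and 10 stayed below 1 RPKM.

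At the other end, 6 members were too low for the fit. Slc25a34 and Slc25a54 had 0 reads in every library, which allows a level of up to 0.117 to 0.196 CPM depending on the library (3 reads, covering counting error only). Slc25a21, the oxodicarboxylate carrier, had 1 read in all, and Slc25a2, an ornithine carrier, had 1 read in each of 2 DT libraries. The whole span of Slc25a2, 1346 bases, is shared with the gene models Gm37013, Gm38666 and Gm38667, each with up to 2971 reads in a library. Reads from this span may not be told apart, so the level of Slc25a2 may be understated. Slc25a41, a short ATP-Mg/phosphate carrier, had 5 reads in DT library 1 and 0 elsewhere. Slc25a31, the adenine nucleotide carrier best known from testis, had 29 reads in saline library 1, 5 in saline library 3 and at most 1 in the others.

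The members lay on both sides of 0. Of the 41 tested members, 8 were called higher and 9 lower in DT. Among all genes tested, 17.2% were called higher and 11.9% lower, 29.0% together. Because the family was picked on this contrast, nothing is read from these counts. The median log2 fold change was -0.13 over the 41 members and -0.01 over all genes tested, and the median absolute value was 0.46 for the members and 0.45 for all genes. All 3 DT libraries lay above all 3 saline libraries for 11 of the tested members and below them for 14. The same held for 25.4% and 20.5% of all genes tested, 45.9% together. Reads of the family made up 0.234% ± 0.00462 of all reads in genes in saline and 0.296% ± 0.0148 in DT.

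**Figure D1:**
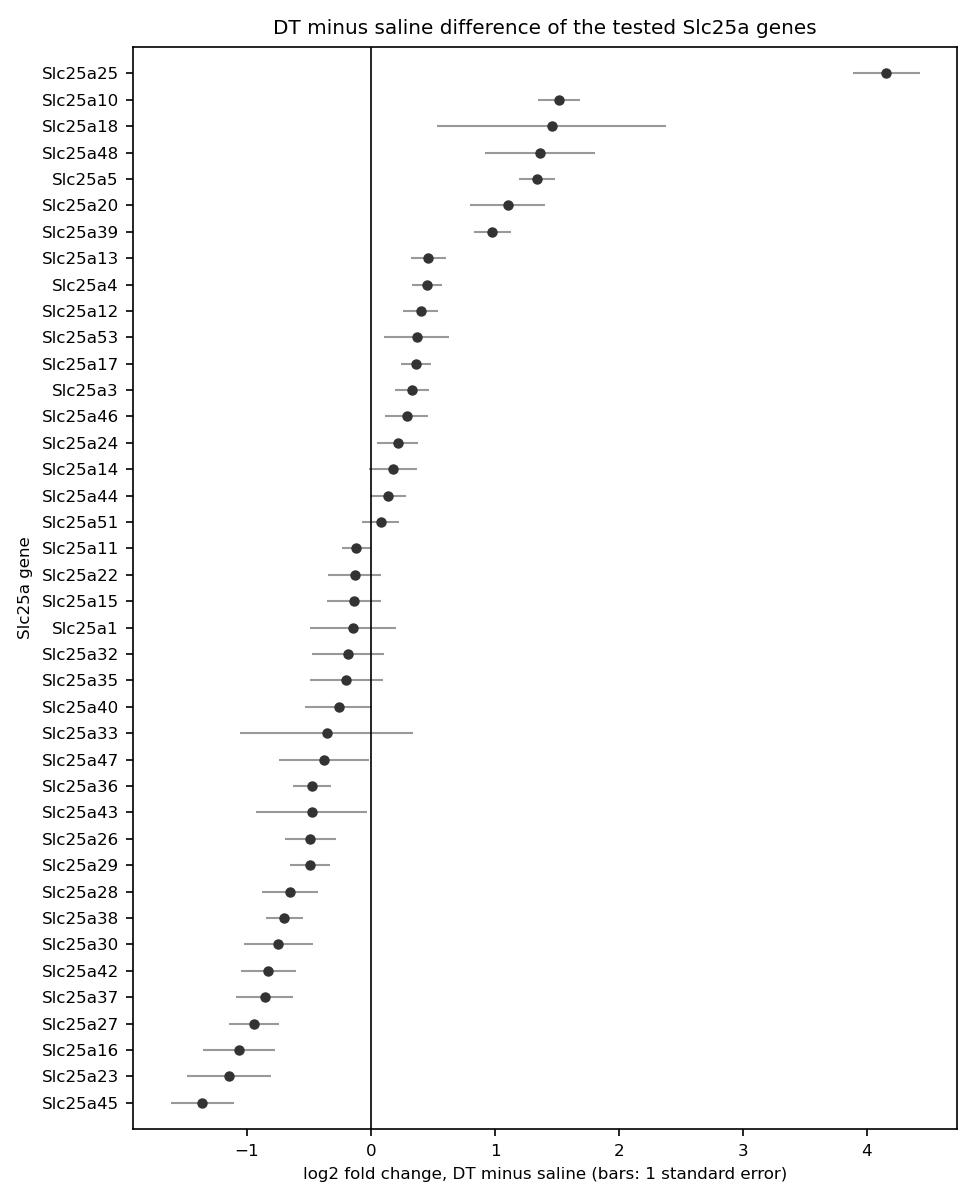
Log2 fold change (DT minus saline, x axis) of 40 of the 41 tested Slc25a genes (y axis), with bars of 1 standard error. Slc25a25 stands at 4.16, apart from the others, which lie between -1.36 and 1.52.

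The called members with higher levels were Slc25a4, Slc25a5, Slc25a10, Slc25a13, Slc25a20, Slc25a25, Slc25a39 and Slc25a48. Those with lower levels were Slc25a16, Slc25a23, Slc25a27, Slc25a29, Slc25a36, Slc25a37, Slc25a38, Slc25a42 and Slc25a45. The counts fell to 5 higher and 4 lower without saline library 2, 5 and 5 without saline library 3, 5 and 3 without DT library 2, and 4 and 5 without DT library 3. Scaling by library size only gave 5 higher and 11 lower. Calls held without each library in turn for Slc25a5, Slc25a10, Slc25a25 and Slc25a39 (higher) and for Slc25a27, Slc25a38 and Slc25a45 (lower). These fits reuse the libraries on which the family was picked. A call that held is therefore a description of the values and no separate support for a difference. Slc25a4, Slc25a23 and Slc25a48 lost theirs in 4 of the 6 fits that left out a library. Slc25a16, Slc25a37 and Slc25a42 lost theirs in 3 of these fits, and Slc25a20 in 2. The sign of the difference changed in at least 1 alternative for Slc25a1, Slc25a15, Slc25a32, Slc25a33 and Slc25a51.

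The ATP-Mg/phosphate carriers exchange ATP-Mg for phosphate and so set the adenine nucleotide content of the matrix. They bear calcium-binding domains, except for the short member Slc25a41. Slc25a25 (Entrez 227731, chromosome 2 from 32414487 to 32451470 in GRCm38) was at 5.59, 8.70 and 4.78 CPM in saline libraries 1 to 3 and at 86.8, 142 and 111 CPM in DT libraries 1 to 3. Every DT library was far above every saline library, and DT library 1 was the lowest of the DT libraries. The log2 fold change was 4.16 (SE 0.27), a 17.8-fold difference, and stood 259th from the top among the 15132 genes tested. It ranged from 3.93 to 4.45 when each library was left out in turn. Its annotated span shares 1014 bases with Naif1, which had at most 134 reads in any library against 2776 for Slc25a25.

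The paralogs of Slc25a25 behaved differently. Slc25a24 was at 61.2, 44.6 and 49.1 CPM in saline libraries 1 to 3 and at 64.8, 63.2 and 52.1 CPM in DT libraries 1 to 3, and the groups overlapped. Its log2 fold change was 0.22 (SE 0.16). Slc25a23 was at 7.83, 5.09 and 4.34 CPM in saline libraries 1 to 3 and at 3.001, 1.88 and 2.87 CPM in DT libraries 1 to 3. All of its DT libraries were below all of its saline libraries, with a log2 fold change of -1.14 (SE 0.34). Its call was lost in 4 of the 6 fits that left out a library. Per length, Slc25a25 supplied 6.89% ± 2.87 of the summed RPKM of the 4 carriers of this type in saline and 53.5% ± 7.19 in DT, and Slc25a24 went from 83.9% ± 3.13 to 44.4% ± 6.61. The summed RPKM of the group was 17.1 ± 2.67 in saline and 38.0 ± 5.73 in DT, and the RPKM of Slc25a24 alone was 14.3 ± 2.38 and 16.7 ± 1.85.

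Promoter windows from RefSeq (GRCm38.p6, 250 bases before to 50 after an annotated start) were found for 36 members, in 46 windows. They are shown for Slc25a25, with its 3 annotated starts, for its abundant paralog Slc25a24, and for Slc25a36, the other member whose window holds the same full cyclic AMP response element. Capitals mark the letters of that element, TGACGTCA, and of CCAAT on either strand (ATTGG on the printed strand when reversed). The counts pool all starts of a gene, so which start of Slc25a25 was used is not known from them.
Slc25a25, chr2:32424017-32424316, minus strand: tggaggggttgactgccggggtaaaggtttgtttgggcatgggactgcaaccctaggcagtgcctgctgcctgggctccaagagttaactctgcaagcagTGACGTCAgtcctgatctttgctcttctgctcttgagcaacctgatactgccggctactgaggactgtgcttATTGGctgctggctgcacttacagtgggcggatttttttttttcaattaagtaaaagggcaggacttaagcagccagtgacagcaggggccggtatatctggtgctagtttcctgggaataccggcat
Slc25a25, chr2:32431102-32431401, minus strand: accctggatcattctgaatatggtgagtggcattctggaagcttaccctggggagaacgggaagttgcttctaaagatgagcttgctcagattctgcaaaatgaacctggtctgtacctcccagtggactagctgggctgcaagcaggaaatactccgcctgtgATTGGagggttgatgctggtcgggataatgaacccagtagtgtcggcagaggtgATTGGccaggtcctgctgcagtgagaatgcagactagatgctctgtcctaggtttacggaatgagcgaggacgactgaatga
Slc25a25, chr2:32451421-32451720, minus strand: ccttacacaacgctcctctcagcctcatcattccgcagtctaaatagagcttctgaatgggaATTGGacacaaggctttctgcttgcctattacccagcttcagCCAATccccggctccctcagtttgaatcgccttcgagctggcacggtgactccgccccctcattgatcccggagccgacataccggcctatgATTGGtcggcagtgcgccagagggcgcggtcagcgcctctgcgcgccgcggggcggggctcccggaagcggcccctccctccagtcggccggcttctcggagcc
Slc25a24, chr3:109122899-109123198, plus strand: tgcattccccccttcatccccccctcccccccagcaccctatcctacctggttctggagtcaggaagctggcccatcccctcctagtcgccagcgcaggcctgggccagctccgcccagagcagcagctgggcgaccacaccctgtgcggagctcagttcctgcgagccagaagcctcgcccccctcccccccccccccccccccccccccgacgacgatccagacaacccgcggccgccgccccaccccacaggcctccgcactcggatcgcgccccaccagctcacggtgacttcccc
Slc25a36, chr9:97110992-97111291, minus strand: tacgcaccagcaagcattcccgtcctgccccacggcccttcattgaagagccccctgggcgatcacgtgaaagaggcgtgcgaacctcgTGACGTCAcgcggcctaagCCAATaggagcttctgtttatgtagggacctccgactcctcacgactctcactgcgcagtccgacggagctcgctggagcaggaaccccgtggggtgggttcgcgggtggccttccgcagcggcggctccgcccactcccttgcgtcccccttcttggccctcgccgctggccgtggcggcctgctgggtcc

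The element TGACGTCA, which is the same on both strands, lies at position -150 from the start in the most downstream Slc25a25 window and at -161 in the Slc25a36 window. The other windows of Slc25a25 and that of Slc25a24 lack these letters. It is present in 2 of the 46 member windows and in 1.79% of all 32851 windows of this length. Slc25a25 had the highest and Slc25a36 a negative log2 fold change. Its core TGACG, which the full element contains, is in 13 of the 46 windows and in 20.8% of all. The E-box CACGTG is in 8 of 46 (7.15% of all), CCAAT in 22 (37.4%), the AP-1 letters TGANTCA in 2 (7.81%), the palindromic NRF1 motif in 2 (4.60%) and TATAAA in 2 (13.6%). The amino acid response letters TGATGNAA (3.97% of all windows) and the E2F letters TTTNGCGC (1.38%) are in 0 of the 46. Both strands were searched, windows of the same gene can overlap, and a match describes letters only.

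**Figure D2:**
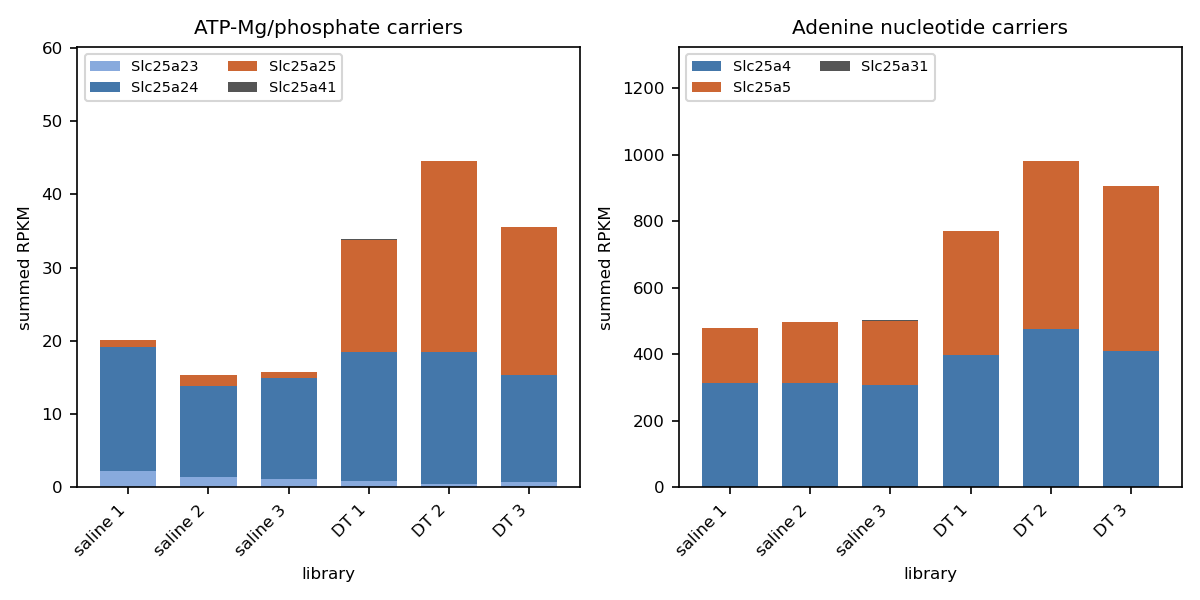
Summed RPKM (y axis) of the ATP-Mg/phosphate carriers (left) and of the adenine nucleotide carriers (right) in each library (x axis), with each gene's part stacked. Slc25a25 fills much of the bar in the 3 DT libraries and little in the saline ones, and Slc25a5 takes 51.5% ± 3.19 of its group in DT against 36.5% ± 2.18 in saline.

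The adenine nucleotide carriers exchange cytosolic ADP for ATP made in the matrix and are among the most abundant proteins of the inner membrane. Slc25a5, the form that predominates in growing cells (Entrez 11740, chromosome X from 36795597 to 36798808), was at 216, 240.4 and 254 CPM in saline libraries 1 to 3 and at 501, 652 and 649 CPM in DT libraries 1 to 3. The groups were well apart, and DT library 1 was again the lowest of its group. The log2 fold change was 1.34 (SE 0.14). Slc25a4, the form of heart and muscle (Entrez 11739, chromosome 8 from 46207168 to 46211062), was at 372, 371 and 362 CPM in saline libraries 1 to 3 and at 478, 551 and 479.8 CPM in DT libraries 1 to 3. The groups did not overlap, but the log2 fold change was only 0.45 (SE 0.12). Per length, Slc25a5 passed Slc25a4 in DT libraries 2 and 3, with 51.4% and 54.8% of the group's RPKM, and stayed below it in DT library 1, with 48.4%. Reads with several alignments were not counted, and Slc25a5 has processed copies in the mouse genome, so its level may be understated.

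The phosphate carrier Slc25a3 brings in the phosphate that ATP synthase needs. It was at 235, 183 and 201 CPM in saline libraries 1 to 3 and at 242, 279 and 257 CPM in DT libraries 1 to 3, with a log2 fold change of 0.33 (SE 0.14). The groups were separate by a small margin, and the gene was called only with consecutive identifiers as a pair block among the 16 alternatives. Subunits of the ATP synthase, a list of 15 genes outside the family, rose in 9 cases and fell in 0, with a median log2 fold change of 0.61. Among all genes tested, 17.2% were called higher and 11.9% lower, with a median of -0.01. These shares stand beside every list count below as well. The lists were chosen with earlier results of these data known, so nothing is read from the list counts. The peripheral stalk subunit Atp5o rose from 205 ± 12.4 to 367 ± 60.6 CPM (log2 0.84, adjusted p = 0.00271), and Atp5g3 (log2 0.87, adjusted p = 0.00474) and Atp5b (log2 0.70, adjusted p = 0.00475) rose as well. Of 13 genes of the TOM and TIM22 import route, 3 rose and 1 fell (median 0.35). Those that rose were Tomm22 (log2 0.72, adjusted p = 0.00634), the channel of the carrier translocase Timm22 (log2 0.59, adjusted p = 0.00724) and the small chaperone Timm10 (log2 0.85, adjusted p = 0.0184), and the receptor Tomm20 fell (log2 -0.58, adjusted p = 0.0400).

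Among the carboxylate carriers, Slc25a10, which exchanges malate or succinate for phosphate (Entrez 27376, chromosome 11 from 120491837 to 120501161), was at 19.7, 17.4 and 15.3 CPM in saline libraries 1 to 3 and at 43.5, 53.6 and 53.1 CPM in DT libraries 1 to 3. Every DT library was more than 2-fold above every saline library, with a log2 fold change of 1.52 (SE 0.17). Slc25a11, which exchanges oxoglutarate for malate, was far more abundant and nearly level, at 182, 170.2 and 180.3 CPM in saline libraries 1 to 3 and at 161, 169 and 161 CPM in DT libraries 1 to 3. Its log2 fold change was -0.12 (SE 0.11), and all DT libraries lay below all saline ones by a small margin. Its span shares 302 bases with Rnf167, so reads from the shared part may not be told apart. Rnf167 had up to 10761 reads in a library, against at most 4403 for Slc25a11. The citrate carrier Slc25a1 was at 23.8, 10.96 and 9.98 CPM in saline libraries 1 to 3 and at 18.2, 10.7 and 11.6 CPM in DT libraries 1 to 3. The highest value was that of saline library 1, the groups overlapped, and the log2 fold change of -0.14 (SE 0.35) became 0.34 without that library. Of 7 genes of citrate and lipid synthesis, citrate synthase Cs (log2 0.74, adjusted p = 0.00219) and the cytosolic isocitrate dehydrogenase Idh1 (log2 0.54, adjusted p = 0.0126) rose and 0 fell, with a median of -0.05. Acly, which splits the exported citrate, had a log2 fold change of -0.05 (adjusted p = 0.816).

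**Figure D3:**
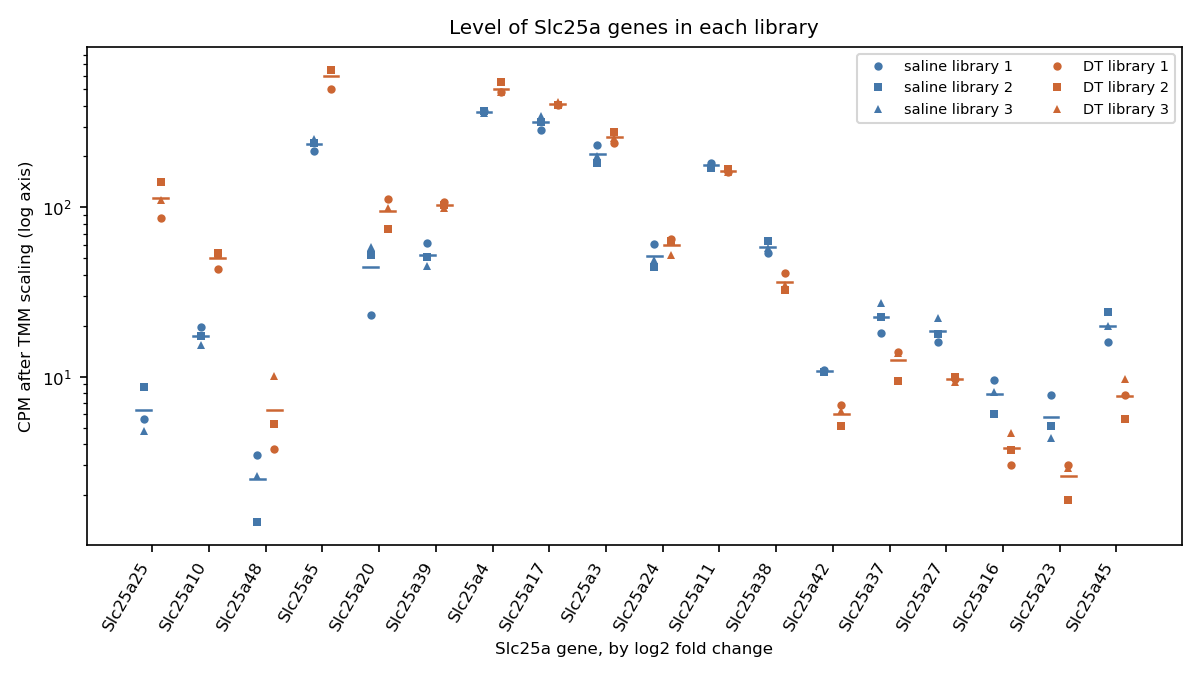
CPM after TMM scaling (y axis, log scale) of 18 Slc25a genes (x axis, ordered by log2 fold change) in each library, with a line at the mean of each group. Slc25a25 has the greatest gap between the groups, and Slc25a24, to the right of the middle, has overlapping ones.

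The aspartate/glutamate carriers Slc25a12 and Slc25a13 belong to the malate-aspartate shuttle, which moves reducing equivalents into the matrix. Slc25a12 was at 69.97 ± 10.7 CPM with saline against 92.3 ± 1.55 CPM with DT (SD, n = 3), with a log2 fold change of 0.40 (SE 0.14). Slc25a13 was at 36.4 ± 2.12 CPM with saline against 50.1 ± 3.50 CPM with DT, with one of 0.46 (SE 0.14). Neither gene overlapped between groups, and the split between them was steady, with Slc25a12 holding 72.1% ± 2.36 of their summed RPKM in saline and 71.4% ± 1.53 in DT. The call of Slc25a13 was lost when any of the 6 libraries was left out. Of 4 enzymes of the shuttle, Mdh2 (log2 0.70, adjusted p = 0.00257), Got1 (log2 0.69, adjusted p = 0.0126) and Got2 (log2 0.59, adjusted p = 0.0324) rose and 0 fell, with a median of 0.64.

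The ornithine carrier Slc25a15 (log2 fold change -0.13, SE 0.22) and the glutamate carrier Slc25a22 (log2 fold change -0.13, SE 0.21) overlapped between groups. The second glutamate carrier, Slc25a18, had at most 31 reads in a library, and its log2 fold change of 1.46 (SE 0.92) fell to 0.42 without DT library 1 and rose to 2.02 without saline library 3. Slc25a29, a carrier of basic amino acids, was at 46.2 ± 1.79 CPM with saline against 32.9 ± 5.52 CPM with DT (log2 fold change -0.49, SE 0.16), with DT libraries all below saline ones, and its call was lost in 5 of the 6 omissions. Of 10 enzymes that use glutamate, proline or ornithine, Oat (log2 0.56, adjusted p = 0.0216) and Aldh18a1 (log2 0.71, adjusted p = 0.0219) rose and 0 fell (median 0.33).

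Slc25a20 carries acylcarnitines into the matrix for fatty acid oxidation (Entrez 57279, chromosome 9 from 108662136 to 108684642). It was at 23.04, 52.3 and 58.6 CPM in saline libraries 1 to 3 and at 113, 74.9 and 99.8 CPM in DT libraries 1 to 3. The groups did not overlap, but saline library 1 stood well below the other saline libraries. The log2 fold change was 1.10 (SE 0.30), and 0.77 without saline library 1. The branched chain amino acid carrier Slc25a44 was at 54.7 ± 6.77 CPM with saline against 60.1 ± 3.51 CPM with DT and overlapped (log2 fold change 0.14, SE 0.14). Of 10 genes of carnitine transfer and fatty acid oxidation, the trifunctional protein subunits Hadha (log2 0.83, adjusted p = 0.0101) and Hadhb (log2 0.56, adjusted p = 0.0347) rose and 0 fell, with a median of 0.38.

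Of 7 carriers of cofactors, 2 were called lower and 0 higher in DT, where 11.9% of all genes tested were called lower and 17.2% higher. Nothing is read from these counts. The coenzyme A-linked Slc25a16 was at 9.53, 6.06 and 8.16 CPM in saline libraries 1 to 3 and at 3.001, 3.69 and 4.63 CPM in DT libraries 1 to 3, with a log2 fold change of -1.07 (SE 0.29). Slc25a42, which imports coenzyme A, was at 10.9, 10.7 and 10.7 CPM in saline libraries 1 to 3 and at 6.80, 5.10 and 6.27 CPM in DT libraries 1 to 3. Its saline values were nearly equal, all DT values were lower, and the log2 fold change was -0.83 (SE 0.22). The calls of Slc25a16 and Slc25a42 were each lost in 3 of the 6 omissions of a library. The S-adenosylmethionine carrier Slc25a26 (log2 fold change -0.49, SE 0.21) also had all DT libraries below the saline ones, without being called.

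Slc25a17, which serves peroxisomes with coenzyme A, FAD and NAD, was the most abundant of the cofactor group (Entrez 20524, chromosome 15 from 81318921 to 81360765). It was at 286, 321 and 346 CPM in saline libraries 1 to 3 and at 403, 400.2 and 421 CPM in DT libraries 1 to 3, a log2 fold change of 0.36 (SE 0.12) that was not called, although the groups did not overlap. It passed the threshold with DESeq2, with both limma fits and with consecutive identifiers as a pair block. The NAD carrier Slc25a51 (log2 fold change 0.08, SE 0.15) and the folate carrier Slc25a32 (log2 fold change -0.19, SE 0.29) overlapped between groups. For both the SE exceeded the difference, so neither a change nor its absence is shown. Of 7 one-carbon enzymes 3 rose and 0 fell with a median of 0.12 (edgeR), namely the mitochondrial Mthfd2, from 4.89 ± 1.23 to 42.04 ± 15.8 CPM (log2 3.10, adjusted p = 0.000174), the mitochondrial Mthfd1l (log2 1.30, adjusted p = 0.00192) and the cytosolic Shmt1 (log2 1.07, adjusted p = 0.00166). Of 6 genes of NAD synthesis and use, the mitochondrial NAD kinase Nadk2 fell (log2 -1.13, adjusted p = 0.0136) and 0 rose.

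The glycine and iron carriers supply heme and iron-sulfur cluster synthesis in the matrix, and all 3 were lower in every DT library than in any saline library. The same order held for 14 of the 41 tested members and for 20.5% of all genes tested, and nothing is read from this count. Slc25a38, the glycine carrier (Entrez 208638, chromosome 9 from 120110377 to 120126093), was at 54.001, 63.7 and 57.95 CPM in saline libraries 1 to 3 and at 40.9, 32.6 and 34.6 CPM in DT libraries 1 to 3, with a log2 fold change of -0.70 (SE 0.15). Mitoferrin 1, Slc25a37, was at 18.03, 22.6 and 27.4 CPM in saline libraries 1 to 3 and at 14.1, 9.47 and 13.9 CPM in DT libraries 1 to 3 (log2 fold change -0.86, SE 0.23). Mitoferrin 2, Slc25a28, was at 11.03 ± 1.42 CPM with saline against 6.996 ± 0.913 CPM with DT (log2 fold change -0.65, SE 0.23) and was not called. The summed RPKM of the 3 genes was 31.7 ± 2.34 in saline and 19.3 ± 1.95 in DT. The share of Slc25a37 in the mitoferrins was 63.0% ± 7.82 and 59.8% ± 2.85. Slc25a37 and Slc25a38 are best known from red cell precursors. The summed level of 6 erythroid markers was 2.78 to 4.27 CPM with saline and 0.703 to 3.16 CPM with DT, 0 of 4 tested were called, and their part in these differences was not tested.

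Of 14 heme and iron-sulfur genes outside the family, 2 rose and 1 fell, with a median of 0.10. The transferrin receptor Tfrc, which takes up iron, rose from 9.003 ± 2.84 to 37.1 ± 14.8 CPM (log2 2.04, adjusted p = 0.00158). Ppox, the next to last enzyme of heme synthesis, fell from 85.997 ± 14.98 to 40.96 ± 6.17 CPM (log2 -1.07, adjusted p = 0.00187). Alas1, which condenses glycine in the first step, had a log2 fold change of 0.15 (adjusted p = 0.427). Slc25a39, which is needed for glutathione import into mitochondria (Entrez 68066, chromosome 11 from 102402969 to 102408675), went the other way from the iron carriers. It was at 62.04, 50.8 and 44.8 CPM in saline libraries 1 to 3 and at 108, 103 and 99.3 CPM in DT libraries 1 to 3, with a wide gap between the groups and a log2 fold change of 0.98 (SE 0.15). Its paralog Slc25a40 was at 9.55 ± 2.40 CPM with saline against 7.97 ± 1.75 CPM with DT and overlapped (log2 fold change -0.26, SE 0.27). Of 6 glutathione genes, the peroxidase Gpx1 rose (log2 0.54, adjusted p = 0.0152) and 0 fell (median 0.35).

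The pyrimidine nucleotide carriers supply matrix DNA and RNA synthesis. Slc25a36 was at 101 ± 18.1 CPM with saline against 72.4 ± 1.42 CPM with DT (log2 fold change -0.48, SE 0.15), with DT libraries all lower, and its call was lost in 5 of the 6 omissions. Slc25a33 was near the limit of detection, with at most 36 reads, and its log2 fold change of -0.36 (SE 0.70) became 0.41 without saline library 1 and -0.82 without DT library 2. Among the carriers akin to uncoupling proteins, Slc25a27 was at 15.997, 17.8 and 22.1 CPM in saline libraries 1 to 3 and at 9.75, 10.004 and 9.26 CPM in DT libraries 1 to 3. Its DT values were tightly grouped below the saline ones, with a log2 fold change of -0.95 (SE 0.20). Slc25a30 (log2 fold change -0.75, SE 0.28) and Slc25a14 (log2 fold change 0.18, SE 0.19) overlapped. Slc25a46, which takes part in mitochondrial fission and fusion, was at 19.7 ± 1.97 CPM with saline against 24.1 ± 2.45 CPM with DT (log2 fold change 0.29, SE 0.17).

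Among the 8 members with no role group, Slc25a45 (Entrez 107375, chromosome 19 from 5877801 to 5885768) had the most negative log2 fold change of the tested family, -1.36 (SE 0.25). It was at 15.96, 24.01 and 19.8 CPM in saline libraries 1 to 3 and at 7.83, 5.64 and 9.66 CPM in DT libraries 1 to 3, so that each DT value was below each saline value. Slc25a48, a carrier linked to choline import, was low and uneven. It was at 3.44, 1.39 and 2.60 CPM in saline libraries 1 to 3 and at 3.75, 5.24 and 10.1 CPM in DT libraries 1 to 3, with DT library 3 far above the others, DT library 1 just above saline library 1, and a log2 fold change of 1.36 (SE 0.45) that was 0.83 without DT library 3. Slc25a35 (log2 fold change -0.20, SE 0.30), Slc25a47 (log2 fold change -0.38, SE 0.36) and Slc25a53 (log2 fold change 0.37, SE 0.26) overlapped between groups. Slc25a43 was at 1.51 ± 0.120 CPM with saline against 1.08 ± 0.202 CPM with DT (log2 fold change -0.48, SE 0.45) and did not overlap. The span of Slc25a53 shares 6094 bases with Zcchc18.

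Among markers of other cells in the same libraries, only fibroblast, immune and melanocyte ones were called. The summed level of 6 fibroblast markers was 23.5 to 41.3 CPM with saline and 9.47 to 16.9 CPM with DT, with Lum at 0 and 1 of 2 tested lower. For 5 immune markers it was 142 to 199.8 CPM with saline and 94.4 to 115 CPM with DT, with 2 of 4 tested lower and no marker at 0 in all 3 saline libraries. For 4 melanocyte markers it was 13.5 to 27.4 CPM with saline and 7.92 to 10.3 CPM with DT, with 2 of 3 tested lower. Adipocyte markers, with Adipoq and Plin1 at 0, summed to 2.73 to 28.6 CPM with saline and 5.03 to 7.12 CPM with DT, most of it Fabp4. Ucp1, also on this list, was at 0 CPM in saline and at 0.281, 1.01 and 0.599 CPM in DT libraries 1 to 3. Endothelial markers summed to 2.27 to 12.6 CPM with saline and 6.56 to 8.59 CPM with DT, with 0 of 2 tested called. For skeletal muscle, where Slc25a4 is abundant, the sum was 6.29 to 9.78 CPM with saline and 5.91 to 10.9 CPM with DT, with Myh4 at 0, against 362 or more CPM of Slc25a4. Their part in the differences of the carriers was not tested.

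Over the 15 lists of genes that work beside the carriers, 129 genes were tested, of which 39 rose and 5 fell, 30.2% and 3.88%, against 17.2% and 11.9% of all genes tested. Their median log2 fold change was 0.33, against -0.01 over all genes tested. Because the lists were chosen with earlier results of these data known, nothing is read from these counts. Without DT library 3, 24 rose and 4 fell, and within the larger number series of the submitters' sample identifiers, with 2 libraries per group, 11 rose and 2 fell. Of the 41 tested carriers, 8 were called higher and 9 lower. By sign alone, called or not, 18 of them were positive and 23 negative.

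**Figure D4:**
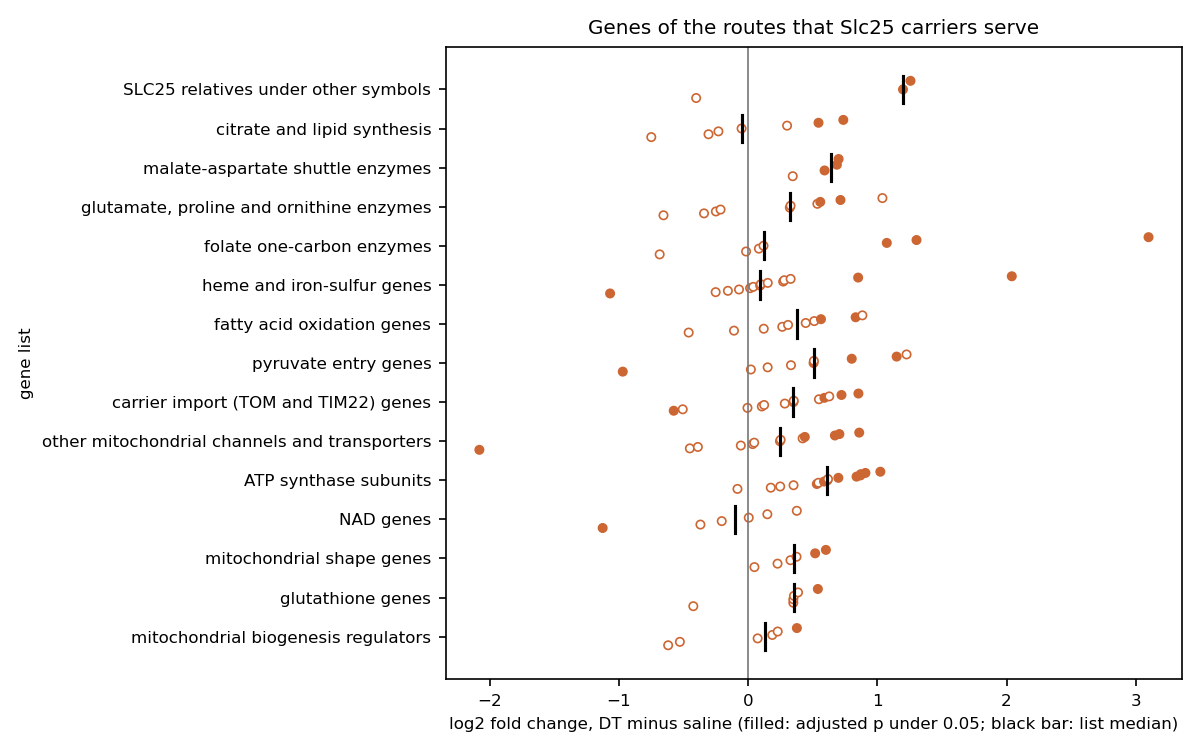
Log2 fold change (DT minus saline, x axis) of each tested gene in 15 lists of genes outside the family (y axis). Filled points passed an adjusted p of 0.05 and black bars are list medians; the ATP synthase list has its median at 0.61 and the NAD list at -0.10.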

How the data were processed

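Reads were aligned with GSNAP to GRCm38, per the submitters' processing notes. The deposited count is the number of reads aligned uniquely to a gene model, and the deposited RPKM was adjusted by a library size factor, both per the file headers. For the aligner's version, the annotation and strand, the sources used here give nothing. Within a library each RPKM followed from the count by a fixed factor per gene, and RPKM served to compare levels between genes. Symbols, coordinates and promoters came from RefSeq tables of GRCm38.p6, which named 31049 of 36528 Entrez identifiers.

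Counts were fitted with edgeR 4.0.16 in R 4.3.3 (filterByExpr at min.count 10 and min.total.count 15, TMM, robust quasi-likelihood test without covariates, Benjamini-Hochberg over 15132 genes). Library sizes ran from 15300755 to 25558859 reads. The SE is the log2 fold change divided by the root of the F statistic. The fit was tested on simulated counts. Libraries carry no replicate numbers in the labels and were numbered in record order.

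The members and lists were chosen with earlier results of these data known. Values in every library are given for the 6 tested members with the most positive and the 6 with the most negative log2 fold change and at least 5 CPM in the higher group, the 6 highest by saline RPKM, the adenine nucleotide and ATP-Mg carriers (as reads for those too low for the fit), and Slc25a1, which was added after its values were seen. Up to 3 genes with the smallest p are named per list, with all relatives; Tomm20, Vdac3, Mcu, Pdhb, Acly and Alas1 were added after their values were seen. Alternatives were DESeq2 1.42.0 and its size factors, limma 3.58.1 (voom, and log2(RPKM + 1)), library size only, other filters, identifier series and pairs as blocks, the larger series alone, and each library left out. Values of 1 tested member and of some genes of the lists are not reported here, although the counts and medians include them.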

Additional observations from a re-analysis of the deposited data

How the results depend on the processing

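Of 16 alternatives, 6 left out a library. With each library left out in turn, genes higher in DT numbered 1564 to 2826 and lower 996 to 2045, members higher 4 to 7 and lower 3 to 8, and genes of the lists beside the carriers higher 24 to 44 and lower 4 to 6. With library size only, 5 members were higher. Within the larger identifier series (2 libraries a group), the count was 1097 for higher and 473 for lower genes, 4 members higher and 1 lower, and 11 list genes higher and 2 lower, with fewer samples. DESeq2 called 10 members higher and 11 lower. The identifier series as a block gave 7 and 8, and consecutive identifiers as a pair block 10 and 8. No analysis paired by replicate number was possible because the labels give no replicate numbers. No direction of the 18 tested members given in full by the rule changed in any alternative. The rule took the members with the largest differences in these data, so this was partly fixed by the choice. Outside the rule, the sign changed in at least 1 alternative for Slc25a1, Slc25a15, Slc25a32, Slc25a33 and Slc25a51. Low read counts limit Slc25a18, Slc25a33 and the members too low for the fit. These counts were also uneven within a group: Slc25a18 had 31, 10 and 2 reads in DT libraries 1 to 3, of which library 3 was the deepest.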

Other observations

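Relatives of the family that carry other symbols were examined as well. Ucp2, an uncoupling protein relative, rose from 228 ± 32.9 to 544 ± 129 CPM (SD, n = 3; edgeR log2 1.26, adjusted p = 0.00116), and Mtch2, an outer membrane relative that inserts proteins, from 81.1 ± 16.7 to 186 ± 38.4 CPM (log2 1.199, adjusted p = 0.00209). Mtch1 had a log2 fold change of -0.40 (adjusted p = 0.109). Ucp1, the uncoupling protein of brown fat, had 0 reads in each saline library and 6, 15 and 15 reads in DT libraries 1 to 3. Ucp3 had 0 reads in saline and 0, 5 and 2 in DT.

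Among 13 other channels and transporters of mitochondria, 4 rose and 1 fell. Of all genes tested, 17.2% were called higher and 11.9% lower, and nothing is read from the list counts in this paragraph. The outer membrane channels Vdac1 (log2 0.67, adjusted p = 0.00545) and Vdac3 (log2 0.86, adjusted p = 0.00890), the serine transporter Sfxn1 (log2 0.71, adjusted p = 0.00550) and the calcium uniporter Mcu (log2 0.44, adjusted p = 0.0331) rose, and the sideroflexin Sfxn4 fell from 12.1 ± 2.55 to 2.83 ± 0.723 CPM (log2 -2.08, adjusted p = 0.000910). Of 9 genes of pyruvate entry, the pyruvate carrier subunit Mpc1 (log2 0.80, adjusted p = 0.0354), Pdhb (log2 0.51, adjusted p = 0.0464) and the dehydrogenase kinase Pdk3 (log2 1.15, adjusted p = 0.000436) rose, and the kinase Pdk2 fell from 166 ± 3.91 to 84.5 ± 26.1 CPM (log2 -0.97, adjusted p = 0.00591). Of 6 genes of mitochondrial shape, Immt (log2 0.60, adjusted p = 0.00883) and Chchd3 (log2 0.52, adjusted p = 0.0147), both of the cristae junction complex, rose. Of 6 regulators of mitochondrial biogenesis, Nrf1 rose (log2 0.38, adjusted p = 0.0435) and 0 fell.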
